A study of Mus musculus with 35 samples.

Results

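At 5 weeks of age, the cervical spinal cord of SCA7 mice was compared with that of WT mice in 2 libraries of each genotype, out of 35 libraries in the series. SCA7 266Q/5Q mice are knock-in animals that carry 1 ataxin-7 allele with 266 CAG repeats and 1 with 5 repeats, and the WT mice are littermates without the expanded allele. All mice were C57Bl/6J. The expanded allele sits at the animal's own locus, so that its product is made wherever the gene is used and not in 1 cell type. At 5 weeks the mice were presymptomatic and at 9 weeks they were ill. The libraries hold RNA of whole tissue, in which fewer cells of a type and less RNA per cell cannot be told apart. Of 35976 gene symbols counted, 17162 had at least 10 counts in at least 1 of the 4 libraries and were tested. The genes described are the 2461 with a mean of at least 10 counts over the 3 libraries whose totals were under 1000000, and they are called members below.

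Ataxin-7 is a subunit of STAGA, a coactivator complex that acetylates histones and removes ubiquitin from them at promoters, and its expanded form collects in the nuclei of neurons and glia. Astrocytes of the cord take up glutamate, GABA and glycine around synapses, buffer potassium and bicarbonate, and surround the motor neurons, while oligodendrocytes wrap axons in myelin. Major histocompatibility complex (MHC) class I proteins present peptides to T cells. They are low in the healthy cord and are induced by interferons.

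The libraries differed in depth. WT 1 held 133861 counts, SCA7 1 held 140097 and SCA7 2 held 191576, and these are called shallow. WT 2 held 29571748 counts and is called deep. Levels are in CPM (counts scaled to library size, with edgeR's TMM factors). A floor of 3 counts was worth 24.6 CPM in WT 1, 23.8 in SCA7 1, 16.2 in SCA7 2 and 0.0807 in WT 2. Mitochondrially encoded genes took 21 to 32.3% of the counts in the shallow libraries and 3.87% in WT 2, and pseudogenes took 0.601 to 0.75% and 0.0889%. At 9 weeks the pseudogene share followed depth as well, with 0.684 to 1.01% in 6 shallow and 0.0843 to 0.102% in 4 deep libraries. Each WT library is therefore given apart, and the ratio to WT 1 is the one within shallow libraries. Of the 12 spinal *Hox* genes, 10 to 11 were counted in each shallow library and 12 in WT 2, and no astrocyte or structural myelin marker was at 0 in any library. *Atxn7* had 2 counts in WT 1, 1015 in WT 2, 7 in SCA7 1 and 8 in SCA7 2, which is 16.4, 27.3, 55.5 and 43.1 CPM. It was too low to be a member, its difference did not pass (adjusted p = 0.941, edgeR), and a count per gene does not tell the expanded allele from the normal one. The labels name separate mice, 2 of each genotype. The spread between the WT libraries holds the difference between mice and that of depth together. The p-values also rest on a spread that edgeR estimates partly across genes, and so do not measure variation between mice alone.

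By edgeR's quasi-likelihood test, SCA7 mice had 8 members called lower and 40 called higher at a Benjamini-Hochberg adjusted p under 0.05. These are 0.325% and 1.63% of the members, beside 0.0641% and 0.658% of all genes tested. At an unadjusted p under 0.05, 77 members (3.13%) were lower and 107 (4.35%) higher. Both SCA7 libraries were below both WT libraries in 372 members (15.1%, beside 15.3% of all genes tested) and above both in 453 members (18.4%, beside 9.82%). The median log2 change over all members was 0.01 (0.04 over WT 1 alone and -0.01 over WT 2 alone). The calls were not stable. DESeq2 called 1 member lower (*Slc1a2*) and 0 higher, with 27 lower and 18 higher at an unadjusted p under 0.05. Without WT 2, and so among shallow libraries alone, edgeR called 0 in both directions, with 117 lower and 32 higher at an unadjusted p under 0.05. The minimum mean count also leaned on the outcome. Of the 542 members with fewer than 10 counts in WT 1, 2 had both SCA7 libraries lower and 188 had both higher, while of the 1919 with at least 10 counts these numbers were 370 and 265. The 263 members within 1 count above the minimum mean had a median log2 change of 0.05, and the 324 tested genes within 1 count below it had a median of -0.04.

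The 8 members called lower were led by genes of astrocytes. *Slc1a2* (chr2:102658239-102790784, GRCm38.p6 as for all positions given) encodes GLT-1, the main glutamate transporter of astrocytes. It was at 1106 CPM in WT 1, 1771 in WT 2, 222 in SCA7 1 and 329 in SCA7 2. Both SCA7 libraries lay far below both WT libraries, also within the shallow ones, where exact Poisson 95% intervals (counting error only) ran from 927 to 1309 CPM in WT 1 and from 251 to 422 in SCA7 2. The fitted log2 change was -2.38 (SE 0.44, adjusted p = 3.32e-05, edgeR), with -2.01 over WT 1 alone and -2.69 over WT 2 alone.

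*Agt* (chr8:124556587-124569706) encodes angiotensinogen, which astrocytes make in the nervous system. It was at 278 CPM in WT 1, 223 in WT 2, 47.6 in SCA7 1 and 53.9 in SCA7 2, on 34, 8297, 6 and 10 counts. The SCA7 libraries were close to each other and the WT libraries did not reach them. The log2 change was -2.28 (SE 0.45, adjusted p = 0.000183, edgeR), with -2.46 over WT 1 and -2.14 over WT 2, so the size did not hinge on which WT library was used.

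A pair of other transporters of astrocytes was called lower. *Slc6a11* (chr6:114131241-114249886), the GABA transporter GAT-3, was at 172 CPM in WT 1, 330.4 in WT 2, 79.3 in SCA7 1 and 91.6 in SCA7 2 (log2 change -1.6, SE 0.42, adjusted p = 0.0209, edgeR). *Slc4a4* (chr5:88793858-89239656), a sodium bicarbonate cotransporter, was at 221, 321, 55.5 and 135 CPM in the same order (log2 change -1.5, SE 0.41, adjusted p = 0.0351). In both, the CPM values of the groups did not overlap. WT 1 lay nearer to the SCA7 libraries than WT 2 did, with changes over WT 1 alone of -1.01 and -1.22. Poisson 95% intervals did overlap, for *Slc6a11* with 106 to 263 CPM in WT 1 and 53.3 to 147 in SCA7 2. For *Slc4a4* they were 146 to 322 CPM in WT 1 and 87.1 to 199 in SCA7 2.

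The other 4 came from receptors, channels, a kinase and myelin. *Ntrk2* (chr13:58806472-59133970), the receptor for brain-derived neurotrophic factor, which astrocytes carry in a truncated form, was at 180.2 CPM in WT 1, 342 in WT 2, 79.3 in SCA7 1 and 91.6 in SCA7 2 (log2 change -1.65, SE 0.42, adjusted p = 0.0133, edgeR). *Kcnc1* (chr7:46396219-46438706), the fast potassium channel Kv3.1 of neurons that fire at high rates, was at 156, 272, 47.6 and 75.4 CPM (-1.82, SE 0.44, adjusted p = 0.00723). For both, WT 2 was well above WT 1, and the changes over WT 1 alone were -1.08 and -1.34 against -2 and -2.14 over WT 2. *Sgk1* (chr10:21882184-21999903), a kinase induced by glucocorticoids, was at 278, 354, 47.6 and 172 CPM (-1.49, SE 0.4, adjusted p = 0.0298, edgeR), with SCA7 1 far below SCA7 2. Its interval in SCA7 2 (118 to 243) overlapped that in WT 1 (193 to 389). *Tspan2* (chr3:102734770-102772310), a tetraspanin of myelinating oligodendrocytes, was at 475, 408, 103 and 189 CPM (-1.57, SE 0.39, adjusted p = 0.0137), and of the 8 only it and *Agt* had WT 1 above WT 2. SCA7 1 was the lowest of the 4 libraries for all 8 genes, and without it 0 members were called lower.

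**Figure D1:**
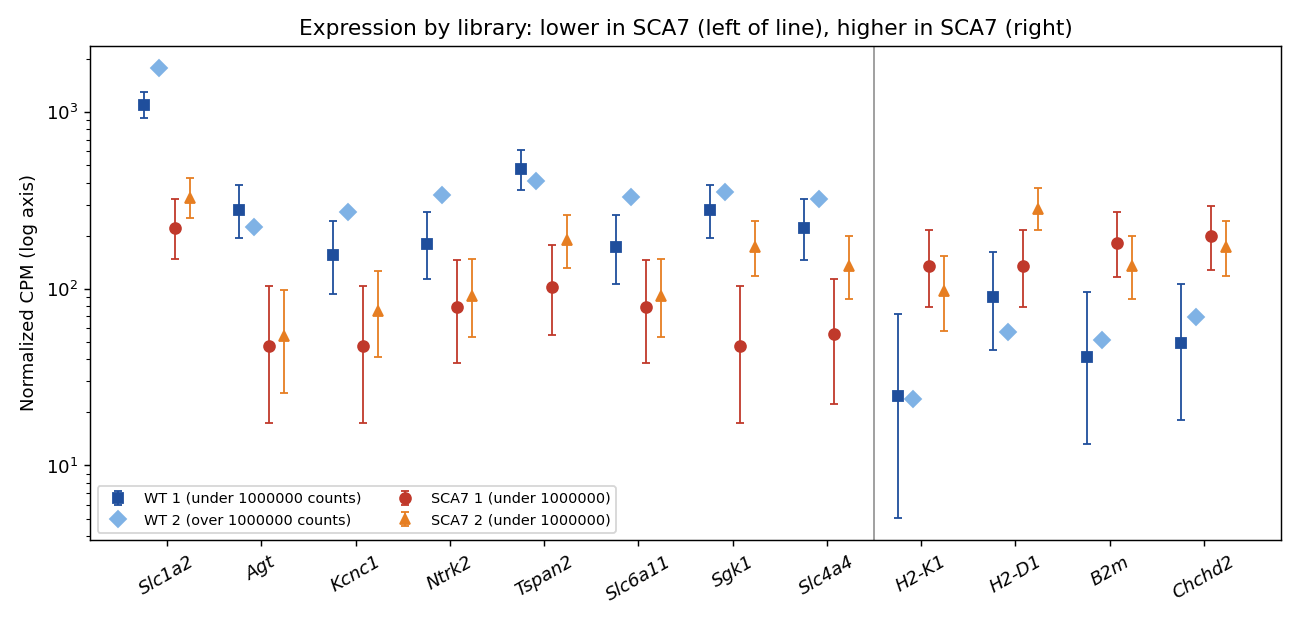
Level of each of 12 genes in the 4 libraries, in CPM on a log axis, with exact Poisson 95% intervals for the 3 shallow libraries as bars. Each point is 1 mouse. The 8 genes called lower have both SCA7 points below both WT points, as *Agt* at 47.6 and 53.9 against 278 and 223 CPM, and *H2-K1*, *H2-D1*, *B2m* and *Chchd2* have both above.

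Of the next 4 members by p whose groups did not overlap, none passed. *Ugt8a*, which makes the galactolipids of myelin, was at 377 CPM in WT 1, 385 in WT 2, 143 in SCA7 1 and 145 in SCA7 2 (log2 change -1.4, adjusted p = 0.0517, edgeR), so that replicates differed little within a genotype. *Bc1*, a small RNA of dendrites, was at 7322, 2707, 825 and 1277 CPM (-2.25, adjusted p = 0.0517), with WT libraries far apart. *Pla2g7*, a phospholipase of astrocytes, gave -1.62 (adjusted p = 0.0807) and *Fads1*, a fatty acid desaturase, -1.51 (adjusted p = 0.0899).

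Among the 40 members called higher, 3 were the MHC class I genes and their light chain. *H2-K1* (chr17:33996012-34000619), a class I heavy chain, was at 24.6 CPM in WT 1, 23.7 in WT 2, 135 in SCA7 1 and 97 in SCA7 2, on 3, 880, 17 and 18 counts (log2 change 2.26, SE 0.53, adjusted p = 0.00493, edgeR). *B2m* (chr2:122147687-122153082), the light chain, was at 41, 51.6, 182 and 135 CPM on 5, 1918, 23 and 25 counts (1.7, SE 0.46, adjusted p = 0.0328). *H2-D1* (chr17:35263094-35267497), another heavy chain, was at 90.1, 57.1, 135 and 285 CPM on 11, 2122, 17 and 53 counts (1.65, SE 0.43, adjusted p = 0.0212). In all 3 genes both SCA7 libraries were above both WT libraries, and for *H2-K1* and *B2m* the deep WT 2 lay near WT 1. The Poisson 95% interval of *B2m* ran from 13.3 to 95.6 CPM in WT 1, from 116 to 274 in SCA7 1 and from 87.1 to 199 in SCA7 2. That of *H2-K1* ran from 5.07 to 71.8 CPM in WT 1, from 78.5 to 216 in SCA7 1 and from 57.5 to 153 in SCA7 2. For both genes the interval of WT 1 thus overlapped that of SCA7 2. For *H2-D1* the intervals of WT 1 (45 to 161) and SCA7 1 (78.5 to 216) overlapped. *H2-K1* and *B2m* had fewer than 10 counts in WT 1 and so reached the minimum mean through the SCA7 libraries. The class I genes have near-identical relatives in this locus. The authors retained reads that mapped to 1 place, so reads that match several of these genes equally would not be counted.

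The sequences before the starts of these 3 genes are shown as context for the values above. Whether the genes moved jointly was not tested, and DESeq2 called none of them. They are the 250 bases upstream from RefSeq (GRCm38.p6), written 5′ to 3′ along the gene, at chr17:34000348-34000597 on the minus strand for the first of 2 start sites of *H2-K1*, at chr17:35262844-35263093 on the plus strand for *H2-D1* and at chr2:122147437-122147686 on the plus strand for *B2m*. Capitals mark, in *H2-K1* and *H2-D1*, the enhancer A letters GGGATTCCC, the interferon response letters TTTCACTTC and the X2 box letters TGACGC, and in *B2m* the interferon-type repeat TTTCNNTTT, which is read there on the opposite strand.
H2-K1: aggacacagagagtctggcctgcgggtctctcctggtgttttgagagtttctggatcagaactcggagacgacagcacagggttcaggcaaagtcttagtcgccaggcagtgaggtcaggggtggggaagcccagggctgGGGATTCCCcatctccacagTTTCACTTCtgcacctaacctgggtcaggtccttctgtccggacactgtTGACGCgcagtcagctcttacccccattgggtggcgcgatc
H2-D1: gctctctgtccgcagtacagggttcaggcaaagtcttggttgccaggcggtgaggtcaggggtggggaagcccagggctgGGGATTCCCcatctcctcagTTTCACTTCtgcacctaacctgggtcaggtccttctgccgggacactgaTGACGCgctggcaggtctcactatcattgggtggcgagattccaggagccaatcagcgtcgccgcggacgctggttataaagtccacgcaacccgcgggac
B2m: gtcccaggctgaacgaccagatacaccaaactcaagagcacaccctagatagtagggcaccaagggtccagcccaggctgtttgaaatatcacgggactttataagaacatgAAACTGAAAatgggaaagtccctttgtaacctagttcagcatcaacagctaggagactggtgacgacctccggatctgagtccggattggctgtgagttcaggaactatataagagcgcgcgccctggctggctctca
In *H2-K1* the 3 motifs began 110, 90 and 41 bases before the start and in *H2-D1* they began 170, 150 and 101 bases before it, in the same order. The repeat in *B2m* began 138 bases before the start. Of 32851 promoters of 250 bases, searched on both strands, 0.301% held GGGATTCCC, 0.402% TTTCACTTC, 6.12% TGACGC and 9.37% TTTCNNTTT. CCAAT and TATAAA were searched as well and stood in 33.8% and 12.4%. In these 3 windows CCAAT matched in each, and TATAAA matched in *H2-D1* and, on the opposite strand, in *B2m*. The motifs were chosen after the genes were seen, and a match describes letters, not binding.

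Neither the marker list of microglia nor other interferon genes were deep enough for a gene by gene account. Of 20 microglia and immune markers 4 were members, 3 of them the class I genes just described. The whole list summed to 589.7 and 608 CPM in WT and 769 and 878 CPM in SCA7, and the 3 class I genes carried that difference, with 156 and 132 CPM in WT and 452 and 517 in SCA7. The other 17 markers lay the opposite way, at 434 CPM in WT 1 (95% interval 325 to 568), 475 in WT 2, 317 in SCA7 1 (227 to 432) and 361 in SCA7 2 (279.7 to 458). A set of 20 genes of class I peptide loading and interferon response, chosen after values were seen and holding 0 members, summed to 81.9 CPM in WT 1 (95% interval 39.3 to 151, 10 counts), 129 in WT 2, 278 in SCA7 1 (193 to 386, 35 counts) and 307 in SCA7 2 (233 to 398, 57 counts). Both SCA7 sums lay above both WT sums, as a description and with no test.

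*Chchd2* (chr5:129881161-129887470), a mitochondrial protein, was at 49.1 CPM in WT 1, 69.4 in WT 2, 198 in SCA7 1 and 172 in SCA7 2, on 6, 2580, 25 and 32 counts (log2 change 1.56, SE 0.43, adjusted p = 0.0464, edgeR). It too was under 10 counts in WT 1 and did not overlap between genotypes. With the class I genes it made up the 4 of 40 that were not called higher in the shallow libraries at 9 weeks. Their log2 ratios of shallow to deep there were 0.6 for *Chchd2* (adjusted p = 0.268, edgeR), 0.52 for *H2-D1* (0.236), 0.39 for *H2-K1* (0.585) and -0.59 for *B2m* (0.228).

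The other 36 of the 40 were called higher in the shallow than in the deep libraries at 9 weeks (adjusted p under 0.05 in edgeR). That contrast of depth called 223 members higher (9.06%, beside 2.25% of all genes tested) and 63 lower (2.56%, beside 1.22%). None of the 8 members lower at 5 weeks was among the 63, but all 8 leaned lower in the shallow libraries. Their median log2 ratio of shallow to deep was -0.68. It ran from -1.05 for *Slc1a2* (adjusted p = 0.0742, edgeR) to -0.23 for *Slc4a4* (0.752), with -0.92 for *Slc6a11* (0.0594). WT 2 was the lowest library for 38 of the 40 and held under 1 CPM of 23. By annotation 20 were pseudogenes, 13 protein coding, 1 another RNA and 6 not matched. The median log2 change of the 40 was 2.65 in the fit, 0.58 over WT 1 and 7.39 over WT 2, with WT 1 over WT 2 at 6.57. *Gm13202* had 6 counts in WT 1, 12 in the deep WT 2, 15 in SCA7 1 and 37 in SCA7 2, and *Rpl17-ps8* had 6, 0, 8 and 17. *Sdhaf4*, an assembly factor of succinate dehydrogenase, was at 98.3 CPM in WT 1, 11.4 in WT 2, 238 in SCA7 1 and 151 in SCA7 2, and *Fam135a* was at 303, 21.8, 396 and 366. In these genes WT 1 was closer, by ratio of CPM, to the SCA7 libraries than to WT 2. *Ube2v1*, a ubiquitin conjugation factor, was at 41, 38.9, 167 and 162 CPM, with the WT libraries alike, and its log2 ratio of shallow to deep libraries at 9 weeks was 1.88. It had 5 counts in WT 1 and so reached the minimum mean through the SCA7 libraries. Of the 40 called higher, 17 had fewer than 10 counts in WT 1. The part of depth in the calls was not tested.

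**Figure D2:**
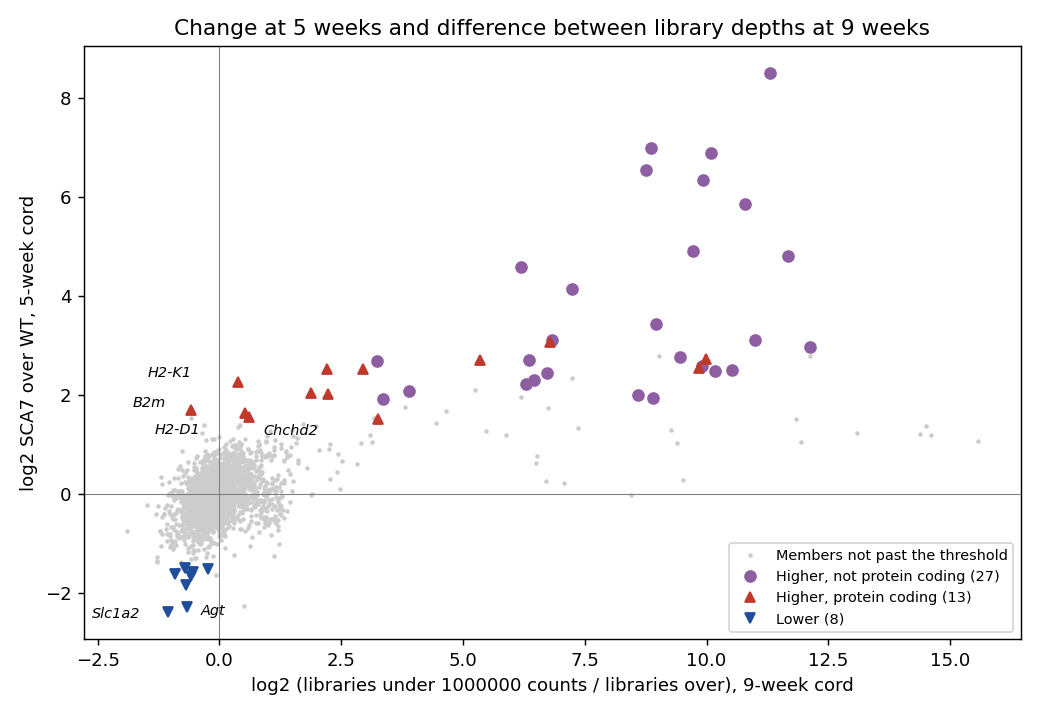
Log2 change at 5 weeks (SCA7 over WT) of each member against its log2 ratio of shallow over deep libraries at 9 weeks, with the called members coloured by kind. Of the 40 members called higher, 36 were called higher in shallow libraries, and the median log2 ratio of the 40 is 7.02, while the 8 called lower lie between -1.05 and -0.23.

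Gene lists of the tissue's cells and functions are given by counts and medians. Of 23 astrocyte markers, 19 were members, of which 13 had both SCA7 libraries lower and 2 both higher (beside 15.1% and 18.4% of members), and 2 were called, *Agt* and *Slc4a4*. Their median log2 change was -0.71 (-0.66 over WT 1 and -0.64 over WT 2), beside 0.01 for all members, and their summed level was 15061 and 12424 CPM in WT and 8905 and 10708 CPM in SCA7. *Aqp4*, the water channel of astrocyte endfeet, was at 516 CPM in WT 1, 489 in WT 2, 269.6 in SCA7 1 and 291 in SCA7 2 (-0.84, SE 0.38, adjusted p = 0.941, edgeR). *Gfap*, the intermediate filament of astrocytes, was at 2342, 1679, 928 and 1249.6 CPM (-0.88, SE 0.49, adjusted p = 0.941). Not all markers lay this way, as *S100b* was at 819, 568, 983 and 1018 CPM and *Mlc1*, a membrane protein of astrocyte endfeet, at 106, 137, 159 and 178. The list's median stayed between -0.91 and -0.63 under other scalings and with any 1 library left out.

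Of 14 members that take up or metabolise transmitters, 5 had both SCA7 libraries lower (35.7%, beside 15.1% of members) and 0 both higher (beside 18.4%), and *Slc1a2* and *Slc6a11* were called. Their median was -0.39, and it was -0.64 without WT 1 and -0.67 without SCA7 2. *Glul*, glutamine synthetase, was at 1663 CPM in WT 1, 1624 in WT 2, 936 in SCA7 1 and 1136 in SCA7 2 (-0.66, adjusted p = 0.941, edgeR). Of 9 members of potassium buffering and the sodium pump, 3 were lower in both SCA7 libraries (33.3%, beside 15.1% of members) and 0 higher (beside 18.4%). The median of -0.41 rested on single libraries, as it was -0.11 without SCA7 1 and -0.8 without SCA7 2. *Kcnj10*, the potassium channel Kir4.1 of glia, was at 581, 762, 214 and 388 CPM (-1.15, adjusted p = 0.29, edgeR), without overlap.

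Myelin genes gave no common value against both WT libraries. Of 12 structural myelin members, 5 had both SCA7 libraries lower (41.7%, beside 15.1% of members) and 0 higher (beside 18.4%), and *Tspan2* was called. The median was -0.35 in the fit, -0.6 over WT 1 and -0.13 over WT 2, and it was -0.13 without WT 1 and -0.71 without WT 2. *Mbp*, a major myelin protein, was at 103915 CPM in WT 1, 16293 in WT 2, 59364 in SCA7 1 and 66401 in SCA7 2, so that the SCA7 libraries lay between the WT ones. *Mobp*, another abundant myelin protein, was at 10958, 4394, 5916 and 5672 CPM, likewise. Of 19 other oligodendrocyte members, 9 were lower (47.4%) and 4 higher (21.1%) in both SCA7 libraries, beside 15.1% and 18.4% of members. Their median was -0.2, and it was -0.46 without WT 2. *Car2* (-1.29, adjusted p = 0.144) and *Tppp* (-1.09, adjusted p = 0.419) were low, while *Fth1*, the ferritin heavy chain, was at 7011, 4168, 10055 and 8300.1 CPM (0.72, adjusted p = 0.941, edgeR).

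For lists of neurons and of STAGA the median was 0.09 for 30 cytoskeleton members of axons (-0.17 with library totals as the scale), -0.09 for 21 synaptic vesicle members (0.03 in thinned libraries) and -0.26 for 4 members of STAGA. Both SCA7 libraries were lower in 2 and higher in 5 of the cytoskeleton members (6.67% and 16.7%), lower in 3 and higher in 1 of the vesicle members (14.3% and 4.76%), and neither in the STAGA members. Over all members these shares were 15.1% lower and 18.4% higher. *Slc18a3*, the vesicular acetylcholine transporter of motor neurons, had 3, 1744, 12 and 26 counts (log2 change 1.55, adjusted p = 0.161, edgeR). With 3 counts in WT 1, it reached the minimum mean through the SCA7 libraries. Of 57 cytosolic ribosomal protein members, 23 were higher (40.4%, beside 18.4% of members) and 0 lower (beside 15.1%) in both SCA7 libraries, with 0 called. Their median was 0.43 (0.49 over WT 1, 0.34 over WT 2), and it was 0.24 without SCA7 1 and 0.16 with library totals. Of 41 nuclear-encoded respiratory chain members, 12 were higher (29.3%, beside 18.4% of members) and 1 lower (2.44%, beside 15.1%). Their median was 0.28, and it was 0.18 without WT 2 and 0.03 with library totals. Among the 542 members with fewer than 10 counts in WT 1, 188 were higher and 2 lower in both SCA7 libraries. The ribosomal and respiratory chain lists were not split by that count, and the part of the minimum mean in their shares was not tested. With library totals as the scale, the median of all members moved to -0.23, and the ribosomal median was above it by a like amount. The 13 mitochondrially encoded genes had a median of 1.02 in the fit, 0.13 over WT 1 and 3.35 over WT 2, and 0 of them had non-overlapping groups. *ATP6* had 2393, 5, 3418 and 3239 counts, so that WT 2 stood apart from the other 3 libraries.

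Medians over the members were -0.52 for 7 glutamate, GABA and glycine receptors (0 over WT 1), -0.18 for 12 voltage-gated channels, -0.18 for 19 genes of cholesterol and fatty acid synthesis, -0.04 for 15 heat shock proteins and 0.09 for 14 glycolysis genes. They were 0.2 for 5 oligodendrocyte precursor markers, 0.32 for 4 motor neuron markers, 0.3 for 3 endothelial and pericyte markers, 0.26 for 5 circadian genes, 0.05 for 6 nuclear-retained RNAs, -0.21 for 3 endoplasmic reticulum stress genes, -0.63 for 4 glucocorticoid-induced genes and 0.41 for 2 immediate early genes. With 1 library left out, several of these medians changed sign, to 0.03 for cholesterol and fatty acid synthesis and 0.23 for heat shock proteins without SCA7 1, to 0.08 for voltage-gated channels and -0.11 for glycolysis without WT 2, and to -0.36 for circadian genes without SCA7 2. Lists with 1 member gave 0.02 (*Ptgds*), -0.56 (*Hoxb8*), 0.37 (cold-inducible) and 0.7 (*Xist*). Lists of Schwann cell, red blood cell, choroid plexus and ependymal, sensory ganglion, skeletal muscle, forebrain and cerebellar markers and p53 targets had 0 members. The p53 target genes summed to 147, 280.3, 262 and 205 CPM in WT 1, WT 2, SCA7 1 and SCA7 2, and the sensory ganglion markers to 0, 4.09, 7.93 and 21.5 CPM.

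**Figure D3:**
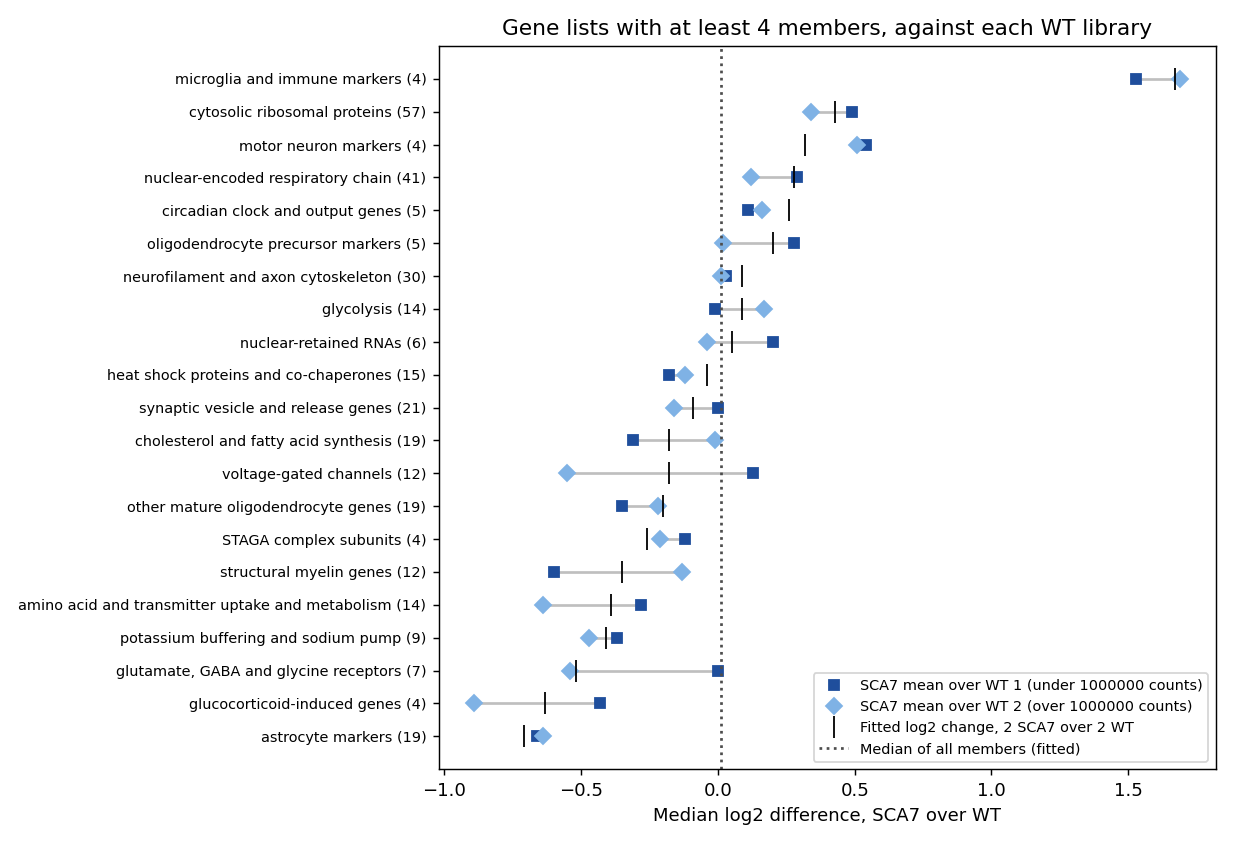
Median log2 ratio of SCA7 to WT over the members of each list with at least 4 members, over WT 1, over WT 2 and in the fit. Astrocyte markers are at -0.66 and -0.64 over the 2 WT libraries, while structural myelin genes are at -0.6 and -0.13.

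Other glial transporters of amino acids were less apart from WT. *Slc6a9*, the glycine transporter GlyT1, was at 254 CPM in WT 1, 290 in WT 2, 214 in SCA7 1 and 226 in SCA7 2 (log2 change -0.31, SE 0.38, adjusted p = 0.941, edgeR). *Slc7a10*, a transporter of serine and alanine that was below the minimum mean for a member (8, 6 and 15 counts in WT 1, SCA7 1 and SCA7 2), was at 65.5, 96.6, 47.6 and 80.8 CPM (-0.38, SE 0.49, adjusted p = 0.941), with overlapping groups. *Slc1a3*, the glutamate transporter GLAST, was at 213, 107, 119 and 135 CPM (-0.24, SE 0.42, adjusted p = 0.941), with both SCA7 libraries between the WT ones. Of these 3 and *Slc1a2*, *Slc1a2* alone passed the test, and the differences between the genes' changes were not tested.

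At 9 weeks, in 5 SCA7 and 5 WT libraries of other mice, 125 members (5.08%) were lower and 7 (0.284%) higher at an adjusted p under 0.05 in edgeR, beside 3.92% and 1.72% of all genes tested. Of the 125, 80 (64%) had a change below 0 at 5 weeks, beside 1192 of all 2461 members. Both SCA7 libraries were lower there in 41 of the 125 (32.8%), beside 15.1% of members. Over the 2461 members the changes at the 2 ages had a Pearson r of 0.081 and a Spearman rho of 0.025, across genes, which are not independent replicates. *Agt* at 9 weeks was at 179 to 322 CPM (median 190) in WT and 22.5 to 63.6 (median 42.4) in SCA7, without overlap, a log2 change of -2.17 (SE 0.26, adjusted p = 0.000168, edgeR). *Slc1a2* (-1.72, adjusted p = 0.0242, edgeR) and *Tspan2* (-1.12, adjusted p = 0.0106) were the other 2 of the 8 that passed at both ages. Their groups overlapped at 9 weeks, with *Slc1a2* at 294 to 2222 CPM in WT and 210.1 to 685 in SCA7. *Tspan2* was at 138 to 330.1 CPM in WT and 83.5 to 147 in SCA7. *Kcnc1* was at 104 to 235 CPM in WT and 98.9 to 215 in SCA7 at 9 weeks (-0.11), and *Sgk1* at 34.5 to 248 and 141 to 224 (0.54), so that the groups overlapped.

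The change at 9 minus that at 5 weeks was tested as an interaction. It passed for 0 of 19306 genes in edgeR, with 194 members (7.88%) at an unadjusted p under 0.05, and DESeq2 called 0 with 162. The values named next are thus descriptions, from fits that did not pass. *B2m* was at 57.1 to 115 CPM in WT and 42.4 to 104 in SCA7 at 9 weeks, with overlapping groups, and the difference of its changes was -1.9 (adjusted p = 0.748, edgeR). *Chchd2* gave -2.35 (adjusted p = 0.718). *Gfap*, with changes of -0.88 at 5 and -2.28 at 9 weeks, gave -1.33 (adjusted p = 0.859). *Fth1*, with 0.72 and -1.49, gave -2.15 (adjusted p = 0.833). *Neat1*, a nuclear RNA of paraspeckles, was at 319, 319.8, 603 and 388 CPM at 5 weeks (0.63) and had a change of -1.31 at 9 weeks, which gave -1.89 (adjusted p = 0.694). Among shallow libraries alone the difference was -2.23 for *B2m*, -2.13 for *Neat1*, -1.33 for *H2-K1* and -0.73 for *H2-D1*, with 0 members called.

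**Figure D4:**
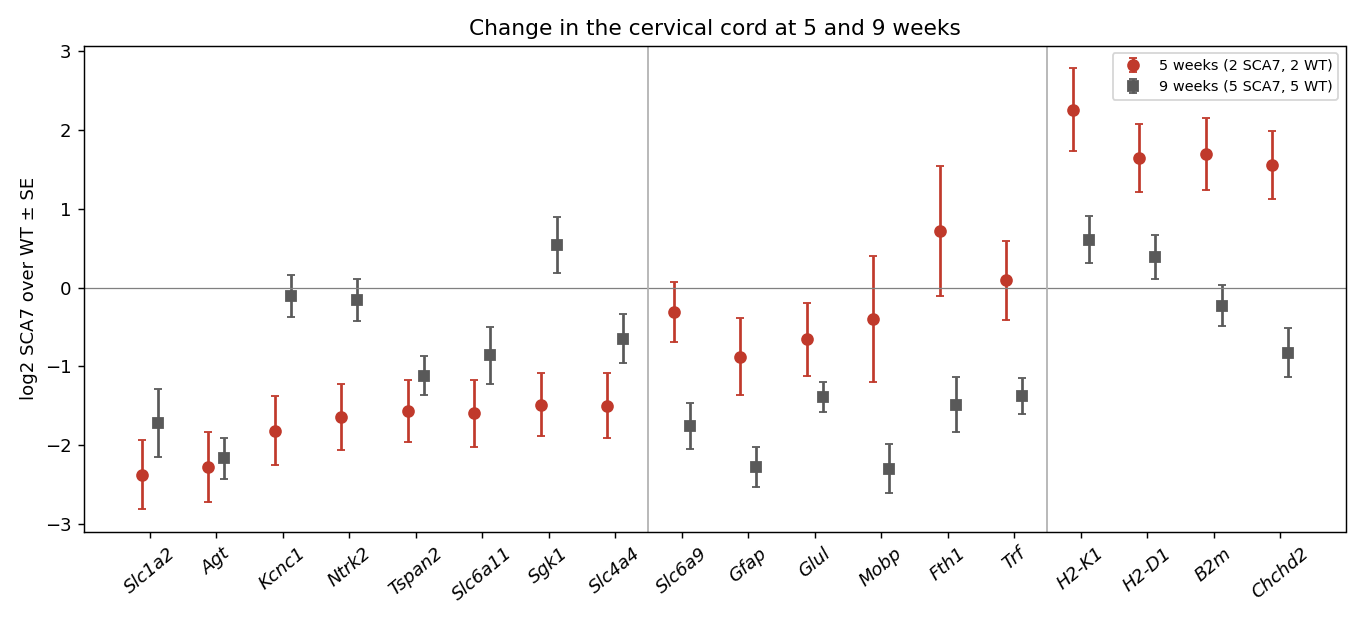
Log2 change (SCA7 over WT, with standard error) at 5 weeks (2 and 2 libraries) and at 9 weeks (5 and 5 libraries of other mice) of 18 named genes. *Agt* is at -2.28 and -2.17, *Mobp* at -0.4 and -2.3 and *B2m* at 1.7 and -0.23.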

How the data were processed

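RNA of cervical cord was measured by RNA-seq. The authors' mapping used GRCm38v73 by the methods and mm10 by the labels. They retained reads that mapped to 1 place and deposited raw counts per gene symbol for each library, and the aligner and counter are not given in the sources used here. Symbols were matched to RefSeq (GRCm38.p6) for 2451 of 2461 members, 60 of them by synonym.

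From the deposited counts, every gene reaching 10 counts in any of the 4 libraries was fitted with edgeR 4.0.16 (quasi-likelihood, legacy, TMM) in R 4.3.3, with Benjamini-Hochberg adjustment over all 17162 genes. Standard errors are the log2 change over the root of F. Ratios to 1 WT library use CPM. The fit at 9 weeks used all 14 cervical libraries with the age by genotype interaction. Intervals are exact Poisson at 95%. DESeq2 1.42.0, limma 3.58.1 (voom), other scalings, filters, thinning of libraries and left-out libraries were alternatives. Depths were 133861 to 191576 counts in 3 libraries and 29571748 in 1, which limits precision in the first 3. In simulated counts at a dispersion of 0.15 (the data gave 0.128), the test called 13 of 100 genes changed 4-fold and 0 of 100 changed 2-fold, among 2756 members. DESeq2 called 42 and 5 in the same counts, with 6% of its calls wrong. Apart from the changed genes, the simulation used 1 profile of means for all libraries, so it lacks the differences in composition between shallow and deep libraries.

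Genes were drawn from the 12 lowest and 12 highest members by p whose groups did not overlap (those past the threshold first). Of the 12 highest, only *Gm13202*, *Rpl17-ps8* and *Sdhaf4* are named here. Further sources were up to 4 of the highest in each of 36 lists, *Atxn7* and the genes of the study's qPCR. *H2-K1*, *H2-D1* and *B2m* came from the list of microglia and immune markers. *Chchd2*, *Ube2v1*, *Fam135a*, the class I set and individual list genes were picked after values were seen. The members and lists were chosen with earlier results of these data known.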

Additional observations from a re-analysis of the deposited data

How the results depend on the processing

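The calls at 5 weeks depended on the method. Against 8 members lower and 40 higher, 1 and 0 were called by DESeq2, 14 and 101 by limma-voom, and 2 and 5 with library totals as the scale. None was called lower or higher (0 and 0) by edgeR's bias-adjusted test (55 and 38 at an unadjusted p under 0.05), with at least 10 counts in every library (44 and 20), with only members fitted (73 and 31), in thinned libraries (51 and 96) or in 1 fit of all cervical libraries (57 and 28). Leaving out 1 library gave 0 to 55 lower and 0 to 124 higher: 55 and 124 without WT 1, 0 and 0 without WT 2, 0 and 6 without SCA7 1, and 3 and 9 without SCA7 2. A lone library left in a genotype was taken to vary like the other genotype. The cause of these shifts was not tested. Members with non-overlapping groups, 372 lower and 453 higher, ranged from 605 to 978 and from 687 to 951 with 1 library left out, where fewer libraries must agree by construction. The number higher was 166 with library totals and 254 with at least 10 counts in every library.

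Alternatives chosen after seeing the data gave 0 and 0 with a depth term in all cervical libraries (100 and 34 unadjusted). With protein-coding genes alone, 6 were called lower, without *Sgk1* and *Slc4a4*, and 15 higher. Among members with at least 10 counts in WT 1, 8 were called lower and 23 higher. Of the same members, 370 were lower and 265 higher without overlap. Replicate numbers did not pair the mice (r = 0.048 between the differences within the genotypes), and a fit with a replicate block called 7 lower and 60 higher. The 8 genes called lower kept their sign in every alternative run, *Slc1a2* passing in 8 of 17 and *Agt* in 7 of 16. *H2-K1* passed in 6 of 16, *H2-D1* in 7 of 17 and *B2m* in 5 of 16, all with positive changes. Of the alternatives' values, 1504 for named genes and 296 for list medians stayed within the spread or on their side of the threshold, while 324 and 87 moved by more than the spread. Of the named genes' values, 219 no longer passed and 16 newly did.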

Other observations

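In the medulla of the same mice depth followed genotype, with deep WT and shallow SCA7 libraries, and the effects of each cannot be told apart. *Slc1a2* was at 1808 and 1603 CPM in WT and 296 and 289 in SCA7, and *Agt* at 183 and 187 in WT and 59.3 and 55.9 in SCA7. *H2-D1* was at 52.8 and 69.1 in WT and 138 and 158 in SCA7, and *B2m* at 52.8 and 58.7 in WT and 158 and 74.5 in SCA7. *H2-K1* was at 27.2 and 30.9 in WT and 98.8 and 18.6 in SCA7, so that the groups overlapped for this gene. These values were not tested.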
